A study of Mus musculus with 16 samples.

Results

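Trbv15 and Trbv17 are variable (V) gene segments of the mouse T cell receptor β (TCRβ) locus on chromosome 6. They were followed through all 16 samples by taking every rearrangement whose V gene was named TCRBV15-01 or TCRBV17-01, which gave 7112 and 5087 of 198953 rearrangements. RefSeq lists Trbv15 also as Tcrb-V12 and places it between Trbv14 and Trbv16, and it lists Trbv17 also as Tcrb-V9 and places it between Trbv16 and Trbv18. Subcutaneous KPC.Luc tumors, a luciferase-expressing pancreatic ductal adenocarcinoma line, were grown in female C57BL/6 mice and treated with an antagonist of the receptors (VIP-R) through which vasoactive intestinal peptide, a neuropeptide, restrains T cells, with a PD-1 antibody, or with both, to see how the repertoire of tumor T cells changed. Each group held 4 mice, and each mouse gave 1 sample. Control mice received the scrambled peptide and isotype IgG, ANT008 mice the VIP-R antagonist ANT008 and IgG, anti-PD-1 mice the scrambled peptide and anti-PD-1 antibody, and combination mice ANT008 and anti-PD-1. Peptides were given at 10 µg every day and antibodies at 200 µg every 3 days, for 10 days. The labels of these samples give positive selection of T cells on CD90.2 from tumor suspensions, with a purity of 80 to 85%, in a protocol that names another assay, whereas the study's text gives extraction from tumors for the receptor sequencing, so it is not settled which cells the templates came from. The values hold no gene other than the receptor, so the cell type was not checked against markers.

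A TCRβ chain is assembled in the thymus by joining 1 V, 1 D and 1 J segment, with bases trimmed from the segment ends and others inserted between them. The joined stretch encodes the third complementarity-determining region (CDR3), which contacts the peptide. A joint that leaves the reading frame gives no receptor, but it remains in cells whose other allele made a working chain, and such out-of-frame joints record how often a segment is joined without regard to its protein. The family of Trbv15 is among those depleted by retroviral superantigens in mouse strains that carry the class II molecule I-E, which C57BL/6 mice lack.

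The ends of the segments are shown first because they set how each CDR3 starts. Each was read as the most frequent base at each place over the rearrangements with no V base deleted, 272 for Trbv15 and 856 for Trbv17. Capitals mark the 17 bases that lie in the CDR3, after 30 bases of the segment before it.
Trbv15: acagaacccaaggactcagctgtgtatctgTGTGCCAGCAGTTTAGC
Trbv17: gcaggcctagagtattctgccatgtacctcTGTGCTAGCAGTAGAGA
The segments were identical at 30 of 47 places (63.8%), which were 17 of the 30 places before the CDR3 and 13 of the 17 within it. CDR3s began with CASSL in 37.2% ± 3.98 (SD, n = 16) of the unique productive rearrangements of Trbv15, against 19.0% ± 0.906 in all other V genes, and more often in 16 of 16 mice. CDR3s began with CASSR in 55.8% ± 3.10 of those of Trbv17, against 4.05% ± 0.193 in all other V genes, again more often in 16 of 16 mice. A rearrangement was called productive when it was in frame with no stop codon.

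Productive templates ranged from 7180 to 72588 per sample (median 32564) and unique productive rearrangements from 2526 to 13939. A template is the sequencing service's whole-number count of starting molecules. The sources name RNA in one place and DNA in another, so more cells and more transcripts per cell cannot be told apart in a template count. Summed over the samples, Trbv15 had 3658 in-frame rearrangements with 11201 templates, 3366 out-of-frame rearrangements with 12618 templates and 88 with a stop codon. Trbv17 had 3267 in-frame rearrangements with 6924 templates, 1806 out-of-frame rearrangements with 4997 templates and 14 with a stop codon. The in-frame rearrangements of Trbv15 thus carried fewer templates than its out-of-frame ones, where 1 out-of-frame rearrangement of combination replicate 3 alone held 3270.

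Trbv15 took 2.11% ± 0.714 of productive templates (SD, n = 16) and stood 16th among 33 V genes by mean share. Trbv17 took 1.41% ± 0.603 and stood 20th. Neighbours were picked by these same mean shares, so the direction of each neighbour difference was fixed in advance. Its p-value describes only how even it was over mice. The 10 comparisons used exact sign-flip permutation within mice (two-sided, Benjamini-Hochberg adjusted). Trbv15 lay below TCRBV26-01 (2.90% ± 1.73, adjusted p = 0.0148, n = 16), and its difference from TCRBV24-01 (2.11% ± 2.73, adjusted p = 0.994, n = 16) did not pass. Trbv17 did not differ from TCRBV31-01 above it beyond the spread (1.46% ± 0.558, adjusted p = 0.821, exact test, n = 16). It lay above TCRBV23-01 (0.446% ± 0.263, adjusted p = 0.000305, exact test, n = 16). Trbv15 exceeded Trbv17 in 14 of 16 mice (adjusted p = 0.0148, exact test).

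By unique productive rearrangements the levels were steadier. Trbv15 made up 2.92% ± 0.180 of them and Trbv17 2.52% ± 0.375, 16th and 19th among the V genes. The coefficient of variation across mice was 6.18% for Trbv15, against 33.8% for its template share, and 14.9% for Trbv17, against 42.9%. By unique rearrangements neither gene was told apart from its upper neighbour, TCRBV20-01 for Trbv15 and TCRBV14-01 for Trbv17 (adjusted p = 0.759 for both, exact test, n = 16).

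Trbv15 held more of the productive templates in combination-treated tumors than in controls, without passing the test across V genes. Its share was 1.15, 1.90, 1.72 and 1.28% in the 4 control mice and 2.95, 3.34, 3.35 and 2.46% in the 4 combination mice. All 4 combination values lay above all 4 control values, and Trbv15 was the 1 of 33 V genes (3.03%) higher without overlap in that comparison. The means were 1.51% ± 0.356 and 3.02% ± 0.421, a log2 fold of 1.00 (SE 0.44) with an edgeR quasi-likelihood adjusted p of 0.217 over 33 V genes. With ANT008 alone the 4 mice gave 2.19, 2.57, 1.78 and 1.22%. With anti-PD-1 alone they gave 1.67, 1.85, 1.66 and 2.74%. Both sets overlapped the controls, with log2 folds of 0.36 (SE 0.43, edgeR adjusted p = 0.850) and 0.38 (SE 0.43, edgeR adjusted p = 0.727).

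Trbv17 was higher than control on average in each treated group, and no comparison passed. Its share was 1.13, 0.917, 1.01 and 0.349% in control mice, the last of them, control replicate 4, being the lowest of the 16 samples. The anti-PD-1 mice gave 1.20, 1.96, 1.41 and 2.14%, all above the controls, and Trbv17 was the 1 of 33 V genes (3.03%) higher without overlap there. In edgeR's fit across all V genes the log2 fold for anti-PD-1 was 0.98 (SE 0.48), with an adjusted p of 0.390. ANT008 mice gave 1.52, 1.73, 1.08 and 2.80%, which overlapped the controls at 1 value, with a log2 fold of 1.07 (SE 0.48, edgeR adjusted p = 0.527). Combination mice gave 1.81, 0.905, 0.840 and 1.70%, 2 of them within the range of the controls, with a log2 fold of 0.62 (SE 0.48, edgeR adjusted p = 0.548). Without control replicate 4 that fold was 0.36, and by unique rearrangements it was 0.16. The ANT008 fold was 0.81 without control replicate 4 and 0.15 by unique rearrangements.

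**Figure D1:**
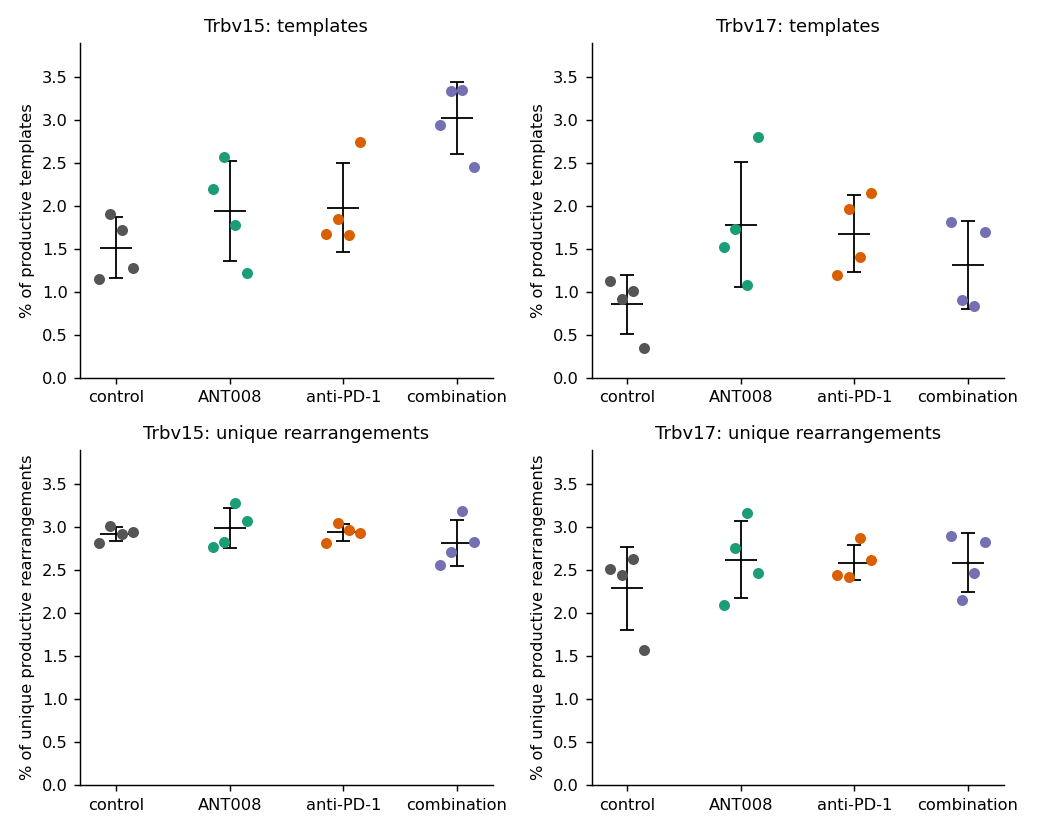
Percent of productive templates (upper panels) and of unique productive rearrangements (lower panels) taken by Trbv15 and Trbv17 in each of the 16 mice, with the mean and SD of each group as bars. The 4 combination mice lie above the 4 control mice for Trbv15 templates, from 2.46 to 3.35% against 1.15 to 1.90%, and the lower panels show no such separation.

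The 3 comparisons share the control mice. Across all 33 V genes edgeR called 1 V gene for ANT008 (3.03%; 6.06% at an unadjusted p under 0.05), 0 for anti-PD-1 (12.1% at an unadjusted p under 0.05, and 0 with DESeq2) and 1 for the combination (3.03%; 15.2% unadjusted), and neither Trbv15 nor Trbv17 was among them. With 1 sample left out these counts ran from 0 to 2 for ANT008, 0 to 2 for anti-PD-1 and 0 to 3 for the combination, again with neither gene among them. The interaction, which asks whether the combination departs from the sum of both agents on the log2 scale, was 0.25 (SE 0.61, edgeR adjusted p = 0.923) for Trbv15 and -1.42 (SE 0.68, edgeR adjusted p = 0.346) for Trbv17, with 1 of 33 V genes called (3.03%), and 1 to 3 with 1 sample left out. Both genes' unadjusted p under 0.05, for Trbv15 in the combination and for Trbv17 with ANT008, with anti-PD-1 and in the interaction, thus did not hold after adjustment. The exact form of Dunnett's comparison on the log2 share, chosen after seeing the data, gave Trbv15 in the combination a difference of 1.02 (SE 0.25, exact p = 0.00484, adjusted p = 0.102 over 21 V genes).

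By its share of unique rearrangements Trbv15 was close in control and combination mice, with no call. It made up 2.92% ± 0.0804 of unique productive rearrangements in control and 2.82% ± 0.266 in combination mice (SD, n = 4 each), a log2 fold of -0.05 (SE 0.09, edgeR adjusted p = 0.936). Trbv17 made up 2.10 to 3.17% of them in ANT008 mice and 1.57 to 2.63% in control mice. By unique rearrangements neither gene separated any treated group from control, against 1 of 33 V genes (3.03%) that was higher and 2 (6.06%) that were lower without overlap for ANT008, and none for the other treatments. The ratio of the template share to the unique share of Trbv15 was 0.516 ± 0.111 in control and 1.08 ± 0.156 in combination mice.

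All size classes of Trbv15 rearrangements held more of the productive templates on average in combination than in control mice, and the frequent ones differed most. Rearrangements of 0.1% or more summed to 1.32% ± 0.775 in combination and 0.379% ± 0.276 in control mice (SD, n = 4 each), from 3 to 6 and from 1 to 4 rearrangements. Those between 0.01 and 0.1% summed to 0.763% ± 0.237 and 0.541% ± 0.172, and those under 0.01% to 0.935% ± 0.181 and 0.594% ± 0.251. The classes were cut from the same template counts, were not tested and were not counted for V genes other than Trbv15 and Trbv17. Trbv17 rearrangements under 0.01% also summed to more in combination than in control mice, 0.947% ± 0.344 against 0.508% ± 0.247. With the leading Trbv15 rearrangement of each sample set aside, Trbv15 held 2.34% ± 0.487 of productive templates in combination mice. In control mice it then held 1.27% ± 0.431. With the rearrangements of 0.1% or more of every V gene set aside, Trbv15 took 3.35% ± 0.716 of the remaining templates in combination mice. In control mice that was 3.21% ± 0.336. That filter acts on the counts compared and changes their sum. Trbv17 rearrangements of 0.1% or more summed to between 0 and 1.75% in ANT008 mice, between 0.140 and 1.32% in anti-PD-1 mice, between 0 and 0.171% in combination mice and between 0 and 0.392% in control mice.

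Averaged over the 16 mice, both genes held a smaller share of templates than of unique rearrangements, a measure chosen after seeing the data. The log2 ratio of the shares averaged -0.97 ± 0.595 for Trbv17, below 0 in 15 of 16 mice, and stood second lowest of 20 V genes (exact sign-flip adjusted p = 0.000407). It averaged -0.54 ± 0.524 for Trbv15, below 0 in 13 of 16 mice (exact sign-flip adjusted p = 0.00374). The exceptions for Trbv15 were all combination mice, replicates 1, 2 and 3, whose template share over unique share was 1.15, 1.23 and 1.05. Of the 20 V genes 10 were called (50%), 8 of them lower (40%).

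The V gene whose template share followed that of Trbv15 most closely over the 16 samples was TCRBV26-01 (Spearman 0.65), then TCRBV23-01 (0.61). For Trbv17 these were TCRBV03-01 (0.50) and TCRBV24-01 (0.49). Between Trbv15 and Trbv17 it was 0.00. These values describe 16 points that share the treatment groups and the sum of each sample's templates.

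Trbv15 was rarer among in-frame than among out-of-frame joints, and for Trbv17 no difference passed the test. Trbv15 made up 3.54 to 5.45% (median 4.78) of unique out-of-frame rearrangements and 2.56 to 3.28% (median 2.93) of unique productive ones, and its in-frame share was the lower in 16 of 16 mice. The log2 fold, in frame over out of frame, was -0.73 (SE 0.04, edgeR adjusted p = 6.03e-68 over 35 V genes, with the mouse as a block). The log2 ratios of the 16 mice averaged -0.67 ± 0.202 (exact sign-flip adjusted p = 5.63e-05 over 24 V genes). Trbv17 made up 1.54 to 3.06% (median 2.56) of out-of-frame and 1.57 to 3.17% (median 2.49) of productive rearrangements, with a log2 fold of 0.01 (SE 0.04, edgeR adjusted p = 0.881). Of the 35 V genes 21 were called (60%), 10 higher in frame (28.6%) and 11 lower (31.4%). Trbv15 stood 11th among V genes by its out-of-frame share and 16th by its productive share, and Trbv17 19th by both. For every out-of-frame rearrangement there were 1.10 ± 0.140 productive ones of Trbv15 and 1.76 ± 0.242 of Trbv17 (SD, n = 16). Over all V genes, the median sample held 7786 unique productive rearrangements, and the median of unique out-of-frame ones was 4477.

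**Figure D2:**
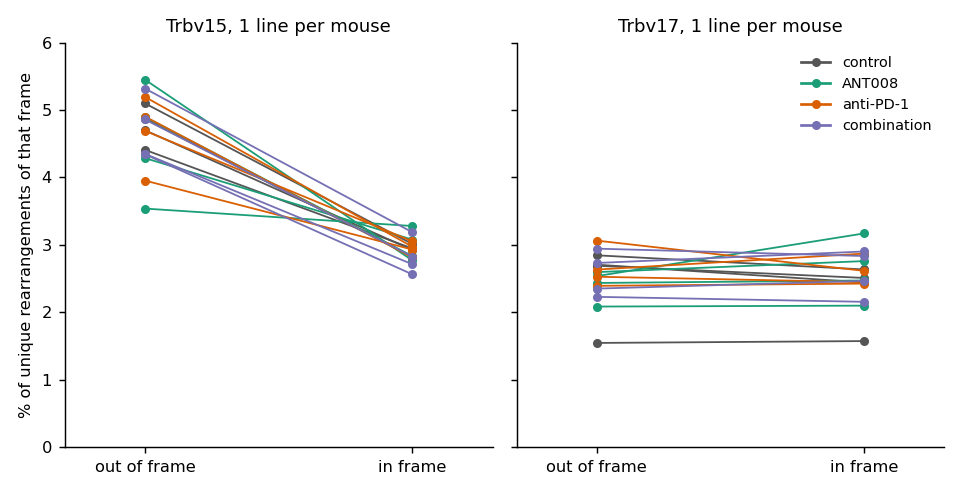
Share of unique out-of-frame and of unique in-frame rearrangements, in percent, taken by Trbv15 and Trbv17, with 1 line per mouse coloured by group. For Trbv15 all 16 lines fall from out of frame (3.54 to 5.45%) to in frame (2.56 to 3.28%), and for Trbv17 lines run both ways.

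The Trbv15 line that fell least belonged to ANT008 replicate 3, where 60 out-of-frame and 90 productive Trbv15 rearrangements were found. For Trbv17 the template counts gave another picture: the log2 fold by templates was -0.69 (SE 0.21, edgeR adjusted p = 0.00408), and that without single-template rearrangements was -0.21 (SE 0.09, edgeR adjusted p = 0.0444).

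**Figure D3:**
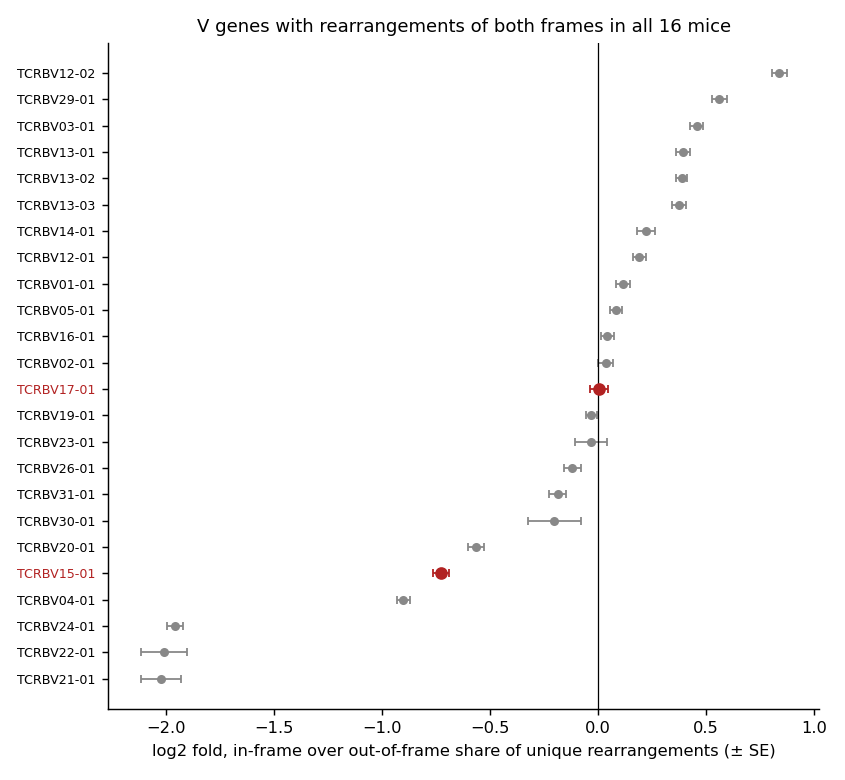
Log2 fold of the in-frame over the out-of-frame share of unique rearrangements (edgeR estimate, bars ± SE) for the 24 V genes with both kinds in all 16 mice. Trbv15 (TCRBV15-01) lies at -0.73, the fifth lowest, and Trbv17 (TCRBV17-01) at 0.01.

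A few out-of-frame rearrangements held most out-of-frame templates of their gene in a mouse. The largest of each gene is printed, with capitals marking the bases between the V and J segments.
Trbv15, combination replicate 3, TCRBJ01-03, 3270 templates: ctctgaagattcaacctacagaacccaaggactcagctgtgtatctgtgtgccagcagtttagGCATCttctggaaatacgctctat
Trbv17, anti-PD-1 replicate 3, TCRBJ02-03, 500 templates: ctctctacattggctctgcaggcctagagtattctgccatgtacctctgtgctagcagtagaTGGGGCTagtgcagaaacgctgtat
The Trbv15 sequence held 83.1% of the out-of-frame Trbv15 templates of its mouse and 13.6% of all out-of-frame templates there. The Trbv17 sequence held 51.4% of the out-of-frame Trbv17 templates of its mouse. Each was found in 1 sample. A Trbv15 rearrangement with a stop codon reached 920 templates in anti-PD-1 replicate 3 and another 369 in control replicate 1, where they were 96.1 and 99.2% of the Trbv15 stop-codon templates.

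Among unique productive rearrangements, Trbv15 used TCRBJ02-07, the J segment used most in these repertoires, more often than other V genes did. Of the unique productive Trbv15 rearrangements of a mouse, 20.5 to 35.0% (median 26.2) used TCRBJ02-07, against 19.7 to 22.8% (median 20.8) of those of all other V genes. The means were 26.7% ± 3.92 and 21.0% ± 0.814, and Trbv15 was the higher in 16 of 16 mice (exact sign-flip adjusted p = 0.000431 over 240 pairs of V and J genes, from 3.05e-05, the smallest p that 16 mice allow in this test). By templates the direction turned and the call was lost: TCRBJ02-07 held 26.9% ± 10.8 of the Trbv15 templates and 29.0% ± 8.86 of those of other V genes, higher in 6 of 16 mice (exact sign-flip adjusted p = 0.633). Of these 240 pairs 80 passed (33.3%), 27 higher (11.2%) and 53 lower (22.1%). Trbv15 had 2 of 12 J genes higher and 4 lower. TCRBJ01-05 was higher in 12 of 16 mice (4.41% against 3.09%, exact sign-flip adjusted p = 0.0287). It no longer passed without ANT008 replicate 3, ANT008 replicate 4, combination replicate 1 or combination replicate 2, with adjusted p from 0.0513 to 0.0527.

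The J genes that Trbv15 used less all lay in the first J cluster. TCRBJ01-02 made up 1.37 to 5.83% (median 3.39) of Trbv15 rearrangements and 4.91 to 6.67% of those of other V genes, lower in 16 of 16 mice (3.57% ± 1.35 against 5.59% ± 0.494, exact sign-flip adjusted p = 0.000431). TCRBJ01-03 (3.54% against 4.94%), TCRBJ01-04 (5.85% against 7.24%) and TCRBJ01-06 (2.07% against 3.10%) were each lower in 13 or 14 of 16 mice, with exact sign-flip adjusted p from 0.00289 to 0.00680. J use of Trbv15 was also set beside that of its out-of-frame joints, without a test of the difference. TCRBJ01-02 made up 8.57% ± 2.08 of them, against 3.57% in frame, and was lower in frame in 16 of 16 mice, while other V genes went the same way, from 7.05% out of frame to 5.59% in frame. TCRBJ02-07 made up 18.7% ± 4.24 of them, against 26.7% in frame, and was higher in frame in 16 of 16 mice, while other V genes had 20.5% out of frame and 21.0% in frame. Among out-of-frame joints no J gene of Trbv15 passed the test against other V genes, TCRBJ02-07 being 1.84 percentage points lower (exact sign-flip adjusted p = 0.204) and TCRBJ01-02 1.52 higher (adjusted p = 0.0580).

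Among unique productive rearrangements, Trbv17 used TCRBJ02-02 more often than other V genes did. TCRBJ02-02 made up 5.94 to 15.6% (median 9.77) of unique productive Trbv17 rearrangements and 4.75 to 6.27% of those of other V genes, higher in 16 of 16 mice (9.48% ± 2.50 against 5.52% ± 0.373, exact sign-flip adjusted p = 0.000431). It was the 1 J gene of 12 higher for Trbv17, and 4 were lower. TCRBJ01-05 was lower in 15 of 16 mice (2.05% against 3.16%, exact sign-flip adjusted p = 0.000698), TCRBJ01-02 in 14 (4.01% against 5.57%, adjusted p = 0.00859) and TCRBJ01-03 in 12 (3.72% against 4.93%, adjusted p = 0.0120). TCRBJ02-04 was lower in 13 of 16 mice (6.23% against 7.88%, exact sign-flip adjusted p = 0.0351). That call was kept with the other 5 samples left out in turn and lost without any 1 of 11, namely control replicates 2 and 3, ANT008 replicates 2, 3 and 4, anti-PD-1 replicates 1, 2 and 3, and combination replicates 1, 2 and 3 (adjusted p from 0.0531 to 0.0624). Out-of-frame Trbv17 joints used TCRBJ02-02 at 6.70% ± 2.88, and their difference from other V genes did not pass (exact sign-flip adjusted p = 0.304). By templates TCRBJ02-02 held 10.9% ± 8.06 of Trbv17 and 6.46% ± 5.66 of other V genes, and the call was lost (exact sign-flip adjusted p = 0.324).

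**Figure D4:**
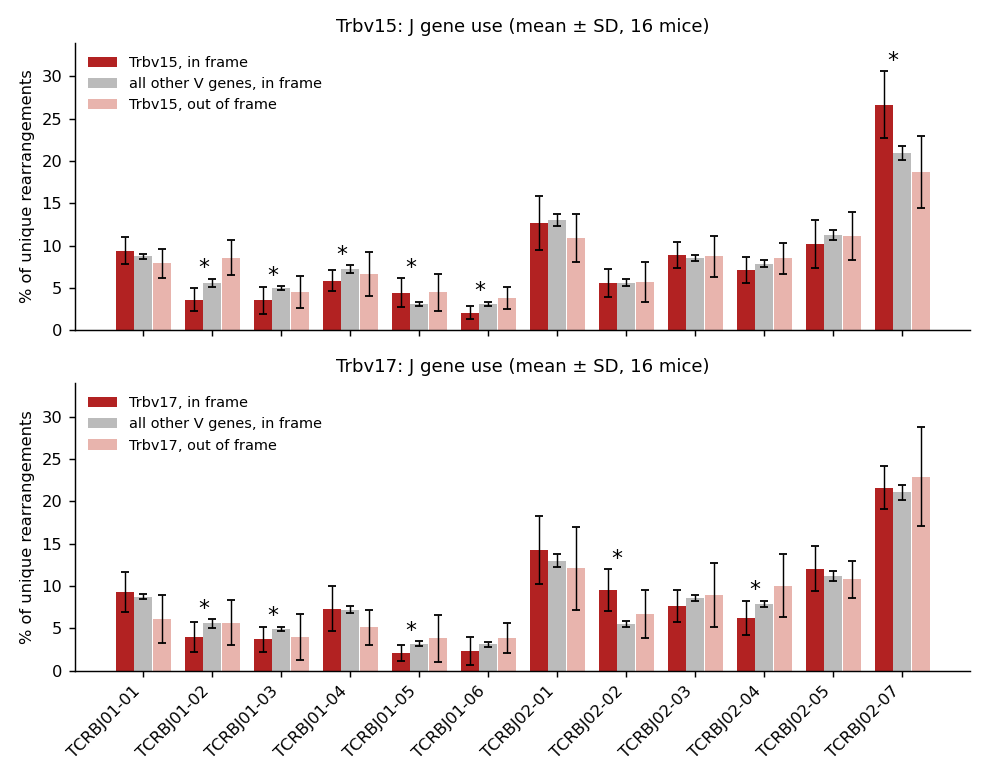
Percent of unique rearrangements that used each J gene, as mean and SD over 16 mice, for Trbv15 (upper) and Trbv17 (lower), in frame and out of frame, and for all other V genes in frame. Stars mark J genes past the threshold in frame, such as TCRBJ02-07 for Trbv15 (26.7% against 21.0%) and TCRBJ02-02 for Trbv17 (9.48% against 5.52%).

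Trbv15 gave short CDR3s and lost more of its end than most V genes, whereas those of Trbv17 were slightly long. The mean CDR3 of unique productive Trbv15 rearrangements was 39.6 to 41.5 nucleotides across mice, against 41.7 to 42.4 in all other V genes. The means were 40.9 ± 0.482 and 42.0 ± 0.180, and Trbv15 was shorter in 16 of 16 mice by 1.15 nucleotides on average (exact sign-flip adjusted p = 8.42e-05), the 19th of 20 V genes from the longest. CDR3s of 13 codons made up 25.4% ± 4.59 of Trbv15 rearrangements and 18.7% ± 0.920 of others. Trbv17 CDR3s averaged 42.5 ± 0.384 nucleotides, longer by 0.515 and in 14 of 16 mice (exact sign-flip adjusted p = 0.000543). Of 80 tests over 20 V genes and 4 measures, 57 passed (71.2%), 28 higher (35%) and 29 lower (36.2%). By measure, 90% of V genes were called for CDR3 length, 95% for V deletions, 75% for insertions and 25% for J deletions.

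Bases deleted from the V end, as the service called them, averaged 3.98 ± 0.176 for Trbv15 and 2.60 ± 0.0413 for other V genes, higher in 16 of 16 mice (exact sign-flip adjusted p = 8.42e-05) and the third highest of 20. They averaged 3.08 ± 0.261 for Trbv17, also higher than in other V genes in 16 of 16 mice (2.63 ± 0.0451, exact sign-flip adjusted p = 8.42e-05). Inserted bases averaged 3.46 for Trbv15 and 3.66 for Trbv17, and neither difference passed (exact sign-flip adjusted p = 0.0506 and 0.169). Bases deleted from the J end averaged 2.96 for Trbv15 and 2.74 for Trbv17, and again neither difference passed (exact sign-flip adjusted p = 0.0541 and 0.146). Among out-of-frame joints Trbv15 likewise lost more V bases (4.29 against 3.00, exact sign-flip adjusted p = 0.000102) and had shorter joints (by 0.672 nucleotides, adjusted p = 0.000188). For Trbv17 the out-of-frame difference in length did not pass and had the other sign, at -0.269 nucleotides (exact sign-flip adjusted p = 0.247).

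**Figure D5:**
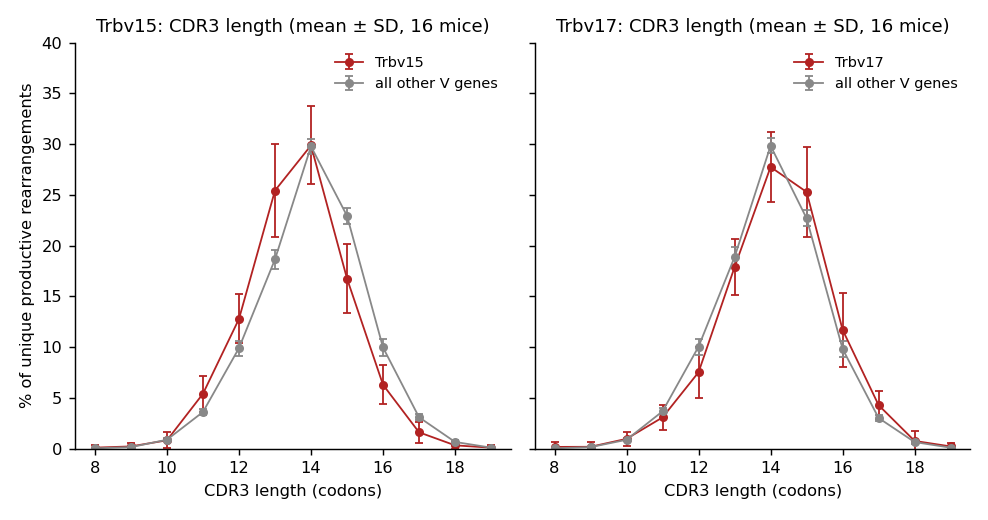
Percent of unique productive rearrangements at each CDR3 length in codons, as mean and SD over 16 mice, for Trbv15 (left) and Trbv17 (right), each beside all other V genes. The Trbv15 curve lies toward shorter lengths, with 25.4% against 18.7% at 13 codons, and the Trbv17 curve lies close to that of the other V genes.

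The leading clone, the rearrangement with the most templates of its gene in a mouse, held 5.40 to 47.9% (median 13.01) of the productive Trbv15 templates and 3.60 to 37.6% (median 10.9) of those of Trbv17. No difference between a treatment and control passed the test for this share. For Trbv15 the means were 17.2% ± 13.9 in control, 14.5% ± 2.77 with ANT008, 18.4% ± 14.5 with anti-PD-1 and 21.3% ± 18.3 in the combination (exact Dunnett p from 0.943 to 0.998, n = 4 each). For Trbv17 they were 12.2% ± 8.04, 17.1% ± 11.96, 22.9% ± 12.9 and 7.42% ± 2.99 in the same order (exact Dunnett p from 0.321 to 0.833, n = 4 each). The 16 leading clones of each gene had 16 different CDR3s and used 8 J genes. They took between 0.0901 and 1.60% of all productive templates for Trbv15 and between 0.0326 and 0.794% for Trbv17.

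Rearrangements with the highest shares of their sample's productive templates are printed, with the CDR3 in capitals up to the last base read.
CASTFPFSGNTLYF: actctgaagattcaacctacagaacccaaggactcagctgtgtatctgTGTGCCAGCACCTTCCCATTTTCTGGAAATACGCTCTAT
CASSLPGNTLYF: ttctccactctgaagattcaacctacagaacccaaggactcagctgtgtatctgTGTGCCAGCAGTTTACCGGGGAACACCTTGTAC
Trbv17 leader of ANT008 replicate 4, TCRBJ02-02: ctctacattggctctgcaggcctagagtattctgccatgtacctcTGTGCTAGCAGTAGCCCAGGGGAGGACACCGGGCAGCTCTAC
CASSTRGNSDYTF: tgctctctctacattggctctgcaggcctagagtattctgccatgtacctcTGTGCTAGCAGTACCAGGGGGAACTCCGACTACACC
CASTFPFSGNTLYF, a Trbv15 clone joined to TCRBJ01-03 in combination replicate 2, had 392 templates and took 1.60% of productive templates there (95% Wilson interval 1.45 to 1.76%). It was 47.9% of the Trbv15 templates of that mouse, and it had lost 7 V bases. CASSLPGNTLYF took 0.808% (0.625 to 1.04%) in anti-PD-1 replicate 4, from 58 templates. These intervals cover counting error only.

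The next Trbv15 clones were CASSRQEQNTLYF in anti-PD-1 replicate 2 (0.601%), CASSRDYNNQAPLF in combination replicate 1 (0.530%) and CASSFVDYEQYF in control replicate 4 (0.485%). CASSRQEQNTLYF was the 1 of these 5 found with the same nucleotides in another sample, with 1 template there. For Trbv17, the printed TCRBJ02-02 rearrangement (0.794%, 95% Wilson interval 0.682 to 0.925%) and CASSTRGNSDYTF (0.746%) led, both in ANT008 replicate 4, where they held 28.4 and 26.7% of the Trbv17 templates. They were followed by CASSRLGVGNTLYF in anti-PD-1 replicate 2 (0.737%), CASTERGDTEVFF in anti-PD-1 replicate 3 (0.422%) and a rearrangement of 15 codons joined to TCRBJ02-07 in ANT008 replicate 1 (0.401%). None of the 5 came from a control or a combination mouse, and both leaders came from the same mouse. Such lists were not made for the other V genes, so this absence was not read as a result.

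CDR3s found in several mice were fewer for Trbv17. Of 3226 different Trbv15 CDR3s, 202 (6.26%) were found in 2 or more samples, and of 3022 Trbv17 CDR3s, 126 (4.17%). Among 21 V genes with 500 CDR3s or more this share ran from 1.49 to 9.59% (median 6.65), and Trbv15 stood 13th and Trbv17 18th. Shared CDR3s held 26.8% of the productive Trbv15 templates and 15.3% of those of Trbv17. They had fewer inserted bases than CDR3s of 1 sample, with means of 2.09 against 3.72 for Trbv15 and 1.81 against 3.85 for Trbv17. Identical nucleotide rearrangements were rarer: 79 of 3543 (2.23%) for Trbv15 and 44 of 3218 (1.37%) for Trbv17. Of all different CDR3s, whether shared or found in 1 sample, 37.8% of those of Trbv15 and 21.4% of those of Trbv17 were also made with other V genes.

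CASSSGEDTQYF, joined to TCRBJ02-05, was the Trbv15 CDR3 found in the most mice, 10 of 16. It had 288 templates in all, from 2 control, 2 ANT008, 3 anti-PD-1 and 3 combination mice. In control mice it had 2 and 1 templates where found. In treated mice where found it had 8 and 32 templates with ANT008, 20, 37 and 77 with anti-PD-1, and 55, 8 and 48 with the combination, or 0.0326 to 0.277% of productive templates. It was at 0.00769% or less in the control mice and above that in the 8 treated mice that held it. The other 4 treated mice, like 2 control mice, had none, so treated and control values overlapped. This pattern was noticed in the data and was not tested, and how many CDR3s showed one like it was not counted. It was built from 6 nucleotide versions, printed to show that the same residues arose from different joints, with capitals for the bases between the V and J segments.
In 4 samples, 77 templates: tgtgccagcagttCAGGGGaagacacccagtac
In 3 samples, 65 templates: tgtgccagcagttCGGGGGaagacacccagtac
In 3 samples, 59 templates: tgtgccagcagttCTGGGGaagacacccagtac
In 1 sample, 77 templates: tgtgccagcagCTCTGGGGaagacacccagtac
In 1 sample, 9 templates: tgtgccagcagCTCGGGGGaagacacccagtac
In 1 sample, 1 template: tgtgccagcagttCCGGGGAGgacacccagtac
The 77 templates of the fourth version came from 1 mouse, anti-PD-1 replicate 3, where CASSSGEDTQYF was the leading Trbv15 clone.

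Of the other Trbv15 CDR3s shared most, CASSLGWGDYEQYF was found in 9 mice, none of them a control, with 1 to 10 templates each. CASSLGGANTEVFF was found in 8 mice with 1 to 3 templates each, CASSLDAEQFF in 7 with 1 to 100, and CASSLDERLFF in 7 with 1 to 13. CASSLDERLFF was highest in control replicate 3 (0.0341%) and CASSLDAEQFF in combination replicate 3 (0.170%). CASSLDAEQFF had no inserted base in any version, and 4 other V genes made it too. The Trbv17 CDR3 found in the most mice was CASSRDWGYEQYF, in 7 mice spread over all 4 groups, with 1 to 5 templates in each and 17 in all. It was also made with 12 other V genes. Its CDR3 was spelled by 7 nucleotide versions, of which the first was found in 3 samples and each of the others in 1.
In 3 samples, 8 templates: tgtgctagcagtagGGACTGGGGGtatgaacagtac
In 1 sample, 3 templates: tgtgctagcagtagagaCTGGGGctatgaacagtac
In 1 sample, 2 templates: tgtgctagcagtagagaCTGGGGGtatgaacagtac
The other 4 had 1 template each. The next shared Trbv17 CDR3s were 1 joined to TCRBJ01-04 in 5 mice, and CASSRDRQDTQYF, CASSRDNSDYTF and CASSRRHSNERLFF in 4 mice each. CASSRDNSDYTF was not found in a control mouse and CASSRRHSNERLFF not in a combination mouse, with 1 to 23 and 1 to 9 templates where found. A CDR3 that was not found in a mouse was not detectable at the depth sequenced, where 1 template was between 0.00138 and 0.0139% of the productive templates of a sample. How many of all shared CDR3s were missing from a group was not counted, so no such absence was read as a result.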

How the data were processed

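TCRβ rearrangements of tumor T cells, per the labels, were sequenced by the authors with the mouse immunoSEQ survey assay, 16 samples in all. The authors deposited 1 table of rearrangements per sample with template counts, V, J and frame calls, CDR3 lengths and inserted and deleted bases. A synthetic repertoire had been used by the service to correct primer amplification. The read columns were empty, and the aligner and genome build are not given in the sources used here. Groups were taken from the labels. The p-values of the exact tests measure the spread between mice of this 1 experiment. Those of edgeR also draw on a spread estimated across V genes, so very small ones do not measure the spread between mice alone.

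Rearrangements were counted per V gene as templates and as unique rows. Treatments were compared with control over 33 V genes with edgeR 4.0.16 (R 4.3.3) quasi-likelihood tests, with library size fixed at productive templates. Frames were compared over 35 V genes with the mouse as a block. J use and junctions were compared with all other V genes by exact sign-flip permutation tests over mice for the 20 V genes with at least 20 unique productive rearrangements in each sample. Leading clones were compared by an exact permutation form of Dunnett's comparison over 63063000 assignments. All tests were two-sided, Benjamini-Hochberg adjusted, with a threshold of 0.05. Python 3.11.15, numpy 2.4.6, pandas 2.3.3, scipy 1.17.1, numba 0.67.0 and matplotlib 3.10.9 were used, and DESeq2 1.42.0 was an alternative. The edgeR treatment fit and the permutation tests were checked on simulated data. The edgeR check used a smaller spread than the data had (common dispersion 0.31) and larger folds than those of these genes. It did not cover the frame fit or DESeq2.

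The text names the V genes beside each gene in the order of template shares and the 2 most like it (Spearman over log2 percent with a pseudocount of 0.01), the 5 rearrangements with the highest shares, the 5 CDR3s found in the most samples and the J genes past the threshold. By unique rearrangements it also names the upper neighbours, and further out-of-frame and stop-codon rearrangements were chosen after their values were seen. Genes and lists were chosen with earlier results of these data known. All 33 V names matched RefSeq symbols (GRCm38.p6), and productive CDR3s were translated as a check. Alternatives covered scaling, filtering, the unit counted, single-template and leading rearrangements, the replicate number as a block, and leaving out each sample. The replicate numbers of the labels and the internal sample numbers in the tables differed, while groups were the same for all 16 samples.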

Additional observations from a re-analysis of the deposited data

Results flagged for a closer look

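Of 40 sets of 4 mice examined, 2 held a value far from the other 3, and chance flags about 1 in 20 such sets. Control replicate 4 had 1.54% of its unique out-of-frame rearrangements in Trbv17, whereas the other control mice had 2.69 to 2.84%. The same mouse also had the lowest Trbv17 share of unique productive rearrangements, 1.57%. Its leading Trbv15 clone held 37.9% of the Trbv15 productive templates, whereas that of the other control mice held 8.98 to 11%.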

How the results depend on the processing

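No template comparison of either gene between treatment and control passed the threshold under any alternative. The log2 fold of Trbv15 in the combination was 0.89 to 1.12 with 1 sample left out and -0.0536 by unique rearrangements, where the interaction was -0.0670. The Trbv17 fold in the combination was 0.36 to 0.79, the lowest without control replicate 4. The low folds of Trbv15 ran from 0.19 to 0.53 for ANT008, 0.19 to 0.51 for anti-PD-1 and 0.09 to 0.45 for the interaction. Without rearrangements at 0.1% or more, an alternative chosen after seeing the data, Trbv15 was at -0.0645 with ANT008 and -0.0255 with anti-PD-1. In the combination it was at 0.0400 (SE 0.144), against 1.02 with all rearrangements in the same comparison. Trbv17 was at 0.297 with ANT008, 0.0979 with anti-PD-1 and 0.188 in the combination (SE 0.204), against 1.11, 1.07 and 0.669 with all rearrangements. That filter acts on the counts compared and changes their sum, so it does not locate a difference. With the replicate block, folds for ANT008, anti-PD-1, the combination and the interaction were 0.36, 0.42, 1.01 and 0.23 for Trbv15 and 0.97, 0.92, 0.53 and -1.36 for Trbv17, and no call changed. The numbers did not pair the mice: deviations of same-numbered samples correlated from -0.462 to 0.546 over 24 pairs, 8 of them above 0.1, and 5 of 16 samples were closest to their own number. The lower in-frame share of Trbv15 held under every alternative run. That of Trbv17 was -0.69 by templates, -0.21 without single-template rearrangements, -0.01 (-0.00686) with TMM scaling, and -0.00846 to 0.0182 with 1 sample left out. For the leading Trbv15 clone, differences from control in percentage points ran from -5.41 to 4.24 for ANT008, -3.45 to 8.17 for anti-PD-1 and -4.72 to 11.05 for the combination with 1 sample left out, and the 3 leading clones gave -0.735 for anti-PD-1. J calls depended on the unit. Trbv15 had 2 J genes higher and 4 lower, against 1 and 0 by templates, 0 and 0 out of frame, and 1 and 2 without single-template rearrangements, and 1 to 2 higher with 1 sample left out. The 1 by templates was another J gene, TCRBJ02-05 (11.5% against 8.22%, exact sign-flip adjusted p = 0.0308). By unique rearrangements TCRBJ02-05 differed by -1.07 percentage points and was not called. Trbv17 had 1 higher and 4 lower, against 0 and 0 by templates, 0 and 1 out of frame, and 0 lower without single-template rearrangements. The 1 out of frame was TCRBJ01-04 (5.09% against 6.88%, exact sign-flip adjusted p = 0.0261), which was not called in frame, where it differed by 0.119. Signs turned by templates for TCRBJ02-07 (-2.16) and TCRBJ01-03 (1.54) of Trbv15 and for TCRBJ01-02 (0.914) and TCRBJ01-03 (0.834) of Trbv17. They turned out of frame for TCRBJ02-07 (-1.84), TCRBJ01-02 (1.52) and TCRBJ01-06 (0.324) of Trbv15 and TCRBJ02-04 (2.22) of Trbv17. In nucleotides, Trbv15 insertions differed by 0.227 weighted by templates and by -0.118 to -0.0752 with 1 sample left out, passing in 5 of these 16. Trbv15 J deletions differed by -0.138 out of frame and by 0.0996 to 0.154 with 1 sample left out, passing in 2. Trbv17 CDR3 length, insertions and J deletions differed by -0.269, -0.305 and 0.138 out of frame. The cause of these changes was not tested..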
